A study of Mus musculus with 56 samples.

Results

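Apoe and 9 genes of cholesterol export, sterol sensing and lipid storage were followed through every sample group of a study of mouse microglia, which are macrophages that live in the brain. The 10 genes were taken by symbol, not by their values: Apoe, Abca1, Abcg1, Plin2, Nr1h3, Nr1h2, Soat1, Pparg, Mylip and Ch25h. Each was present in all 3 kinds of deposited table, among the 27998 genes of the single-cell matrix, the 23420 genes of the bulk count table and the 23356 symbols of the FPKM files.

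The 56 samples came from 5 designs. Single-cell libraries, made with droplets and 3′-end counting, came from the cortex of B6 wild-type mice at postnatal day 9 (P9) and postnatal day 28 (P28), and from P9 cortex of B6 mice labelled ST2 Het and ST2 KO, with 2 libraries in each of the 4 groups. ST2, encoded by Il1rl1, is the receptor of the cytokine IL-33. Microglia of B6/129 carriers of the Mapttm1(EGFP)Klt allele, in which neurons make GFP from the tau locus, were sorted from cortex. The age was postnatal day 10 by their labels (day 9 in the series' design text). The sort gave Tau-GFP plus cells, which contain GFP, and Tau-GFP negative cells, with 8 libraries each. Plus and negative cells all came from carriers of the allele. Primary cultures of CD11b bead-selected microglia from B6 wild-type pups of postnatal day 5-8, kept in M-CSF medium, gave 7 libraries in medium and 7 after 200 ng/ml IL-33 for 3 h; the protocol also names a pretreatment with GSK-J4, a histone demethylase inhibitor, and does not say whether these cultures received it. Day 9 cortex of B6/C57 mice, with no genotype given, was sorted on TMRM, a dye that accumulates in mitochondria with a high membrane potential, into 10 TMRM-high and 8 TMRM-low libraries. The labels do not say which libraries came from separate animals or cultures, so p-values measure the spread between libraries, part of which may be technical.

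Apolipoprotein E is the main lipid carrier secreted by glia. ABCA1 loads cholesterol and phospholipid onto lipid-poor apolipoproteins and ABCG1 passes cholesterol to particles that already hold lipid, while cholesterol that is not exported is esterified by SOAT1 and kept in droplets coated by PLIN2. The nuclear receptors LXR-alpha (Nr1h3) and LXR-beta (Nr1h2) sense oxysterols such as 25-hydroxycholesterol, the product of CH25H, and switch on Abca1, Abcg1, Apoe and Mylip, whose product sends lipoprotein receptors to degradation; PPAR-gamma (Pparg) is a fatty acid sensor of the same receptor class.

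Promoter sequences of 9 of the 10 genes were found in RefSeq (GRCm38.p6); none was found for Abcg1. The 3 below are shown because Apoe and Plin2 changed together in 3 of the comparisons while Abca1, the classical LXR target, did not follow them in each. Each is the 250 bases before a start site on the minus strand, written 5′ to 3′ along the gene. Capitals mark matches to the letters searched.
Apoe, chr7:19699189-19699438: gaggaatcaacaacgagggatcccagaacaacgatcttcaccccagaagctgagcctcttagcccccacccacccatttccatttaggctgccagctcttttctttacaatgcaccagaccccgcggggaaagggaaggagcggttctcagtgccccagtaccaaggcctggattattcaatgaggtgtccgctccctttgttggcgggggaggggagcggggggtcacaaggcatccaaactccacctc
Plin2, chr4:86670060-86670309: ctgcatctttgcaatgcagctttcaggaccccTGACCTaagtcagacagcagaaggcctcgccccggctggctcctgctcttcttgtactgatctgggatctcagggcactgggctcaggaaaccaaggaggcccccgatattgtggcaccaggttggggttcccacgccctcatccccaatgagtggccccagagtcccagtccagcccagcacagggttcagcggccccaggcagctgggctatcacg
Abca1, chr4:53159896-53160145: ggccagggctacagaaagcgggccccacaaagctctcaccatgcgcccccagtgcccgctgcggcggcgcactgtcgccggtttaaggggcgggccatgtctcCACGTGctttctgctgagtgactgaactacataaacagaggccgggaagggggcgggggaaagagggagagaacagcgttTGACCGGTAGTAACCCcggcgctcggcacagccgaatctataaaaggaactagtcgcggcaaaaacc

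4 letter patterns were searched on both strands. The nuclear receptor half-site AGGTCA, present in 4604 of 32817 mouse promoters of the same length, occurred in Plin2, 218 bases before the start site on the opposite strand, where it reads TGACCT. The Abca1 promoter held the E-box CACGTG, found in 6.02% of promoters, 147 bases before the start. A pair of half-sites in the same direction, 4 bases apart, is the textbook form of an LXR site. The exact pair (0.0152% of promoters), and the pair 1 base apart (0.0335%), were in no promoter of the 9 genes. With up to 3 of the 12 letters allowed to differ, 18.5% of promoters held the pair 4 bases apart, and of the 9 genes only Abca1 did, as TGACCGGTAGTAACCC on the opposite strand from 67 bases before the start. The printed Apoe window held none of these patterns. Apoe has 3 RefSeq start sites, and its other windows also held none. Pparg has 3, and its windows held 2 half-sites. A match is a description of letters only, and some half-sites overlap the longer patterns by construction. By the GENCODE annotation of GRCm38, Apoe lies on chromosome 7 (19696109 to 19699188), Abca1 and Plin2 on chromosome 4 (53030787 to 53159895 and 86648386 to 86670060), Abcg1 on chromosome 17 (31057675 to 31117988) and Mylip on chromosome 13 (45389742 to 45412022).

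In the single-cell libraries, 15335 of 15507 barcodes passed the filters and fell into 18 clusters, of which 14, with 14384 cells, were microglia-like by 12 markers. A cluster of 677 border-associated macrophage-like cells (macrophages of the meninges and vessels, led by Pf4 and Lyve1), 69 neutrophil-like cells, 11 T and NK cell-like cells and 194 cells led by Cldn5, left unnamed, made up the rest. No doublet caller was run, and 137 barcode sequences occurred in more than 1 library. The wild-type libraries held 11424 barcodes, 11276 after the filters, beside the 9391 cells the design text states. Median UMIs per cell were 3834 and 4070 in the P9 wild-type libraries, 2296 and 2232 at P28, and 5200 to 5997 in the ST2 libraries. The bulk libraries held 7709047 to 11826389 expected counts, and the depth of the FPKM libraries is unknown.

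Which of these genes change as the cortex matures was read from the wild-type libraries, as UMIs summed over microglia-like cells and given as CPM (counts scaled to a library of common size by TMM). Apoe and Plin2 fell between P9 and P28 while Abcg1, Mylip and Nr1h2 rose, so that the lipid carrier and the droplet coat moved against one of the exporters. Of all 11601 genes tested, 53.6% passed an adjusted p of 0.05 (27.5% higher and 26.1% lower at P28), so a call alone was common in this comparison. 7 of the 10 genes passed the low-count filter, with 4 called higher and 2 lower; Nr1h3, Pparg and Ch25h had at most 8 UMIs in any wild-type library and were not tested. In all 7 tested genes the ages did not overlap, as in 78.3% of all genes tested.

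Apoe stood at 6996 and 6925 CPM in the P9 libraries and at 1262 and 1148 CPM in the P28 libraries. The ages did not overlap, and P28 held 0.173 of the P9 level (log2 fold change -2.53 ± 0.05 SE, edgeR quasi-likelihood adjusted p = 6.6e-13). Plin2, the droplet coat, stood at 122.5 and 115.1 CPM at P9 and at 31.3 and 28.2 CPM at P28. Its fall was of like size (-1.997 ± 0.084, adjusted p = 4.7e-10), again without overlap. In cells thinned to 1000 UMIs each (2546 and 2207 cells at P9, 2819 and 2868 at P28), Apoe was found in 81.7% and 80.5% of P9 cells and in 45.0% and 44.9% of P28 cells. Without thinning these shares were 97.8% and 97.9% at P9 and 64.6% and 62.9% at P28. Plin2 was found in 10.3% and 9.43% of thinned cells at P9 and in 2.98% and 3.03% at P28.

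Among the genes of efflux and its control, Abcg1 was at 29.98 and 28.89 CPM at P9 and at 63.5 and 54.3 CPM at P28. It rose by 1.00 ± 0.10 on the log2 scale (adjusted p = 2.4e-06). Abca1, the partner exporter, was at 112.4 and 110.3 CPM at P9 and 100.1 and 100.6 CPM at P28. The Abca1 difference of -0.15 ± 0.06 missed the threshold (adjusted p = 0.065), and its direction depended on which cells were summed. It was -0.52 (adjusted p = 1.5e-05) without the cycling clusters and -0.36 (adjusted p = 4.8e-04) over all cells. It turned to 0.38 (adjusted p = 5.4e-04) without the clusters that Spp1 or Fos helped lead, a choice made after seeing the data. In the same sums Apoe stayed lower at P28 (-2.89, -2.16 and -1.93), as did Plin2 (-2.17, -1.93 and -1.57), and Abcg1 stayed higher (0.68, 1.03 and 1.64).

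Mylip, which limits lipoprotein receptors, was at 87.4 and 86.6 CPM at P9 and at 143.4 and 152.4 CPM at P28, a rise of 0.77 ± 0.06 (adjusted p = 3.1e-07). Nr1h2, the LXR that microglia carried in quantity, was at 49.8 and 48.1 CPM at P9 and at 66.3 and 62.1 CPM at P28. It rose by 0.39 ± 0.07 (adjusted p = 5.1e-04), and neither gene's ages overlapped. Soat1 was at 32.0 and 34.7 CPM at P9 and 39.4 and 39.0 CPM at P28. Its call (0.23 ± 0.09, adjusted p = 0.037) was lost without any 1 of the 4 libraries (adjusted p = 0.052 to 0.24) and without the cycling clusters (0.05, adjusted p = 0.68).

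**Figure D1:**
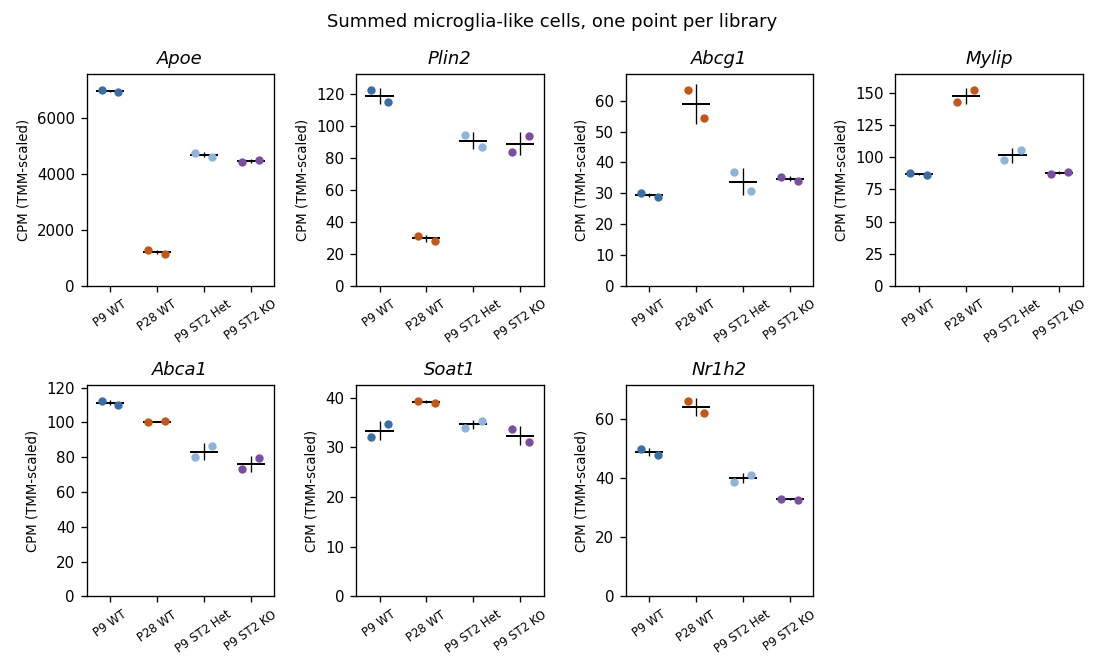
CPM of 7 genes in UMIs summed over microglia-like cells, 1 point per library, with the mean (horizontal line) and SD (vertical line) of each pair, for P9 and P28 wild type and P9 ST2 Het and ST2 KO. Apoe and Plin2 are far lower in both P28 libraries than in any P9 library, and Abcg1 and Mylip are highest at P28. None of the 7 genes was called between Het and KO.

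Several measures moved with age beside these genes. Cycling clusters held 31.8% and 33.1% of P9 wild-type microglia-like cells and 0% at P28. The summed CPM of 8 border-associated macrophage markers in microglia-like cells was 302 and 308 at P9 and 39.7 and 35.4 at P28. Neutrophil markers summed to 2.19 and 5.72 CPM at P9 and to 92.5 and 57.8 CPM at P28, Fos stood at 283 and 295 CPM against 122 and 97.9 CPM, and Hspa1a at 28.2 and 29.1 CPM against 78.5 and 104 CPM. The median depth was lower at P28. Their part in the results was not tested, beyond the sums without cycling cells above.

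Apoe was also read in cell classes not known for it. At P9, Apoe reached 5633 CPM in microglia-like cells over all 6 libraries (exact Poisson 95% interval 5610 to 5656), 12200 CPM in 14 neutrophil-like cells (11310 to 13140) and 7957 CPM in 187 cells led by Cldn5 (7731 to 8189). At P28 it was 1224 CPM in microglia-like cells, 1318 CPM in 55 neutrophil-like cells (1173 to 1477), and 78.0 CPM, from 2 UMIs, in 11 T and NK cell-like cells (9.44 to 282). In the 7 P28 cells led by Cldn5 it was 4963 CPM, from 56 UMIs (3749 to 6445). These intervals cover counting error only. Apoe in neutrophil-like cells thus lay at or above the microglia-like level at both ages. In the P9 wild-type libraries alone that level was 6810 and 6654 CPM. The P9 neutrophil-like cells also held 4200 CPM of the border-associated macrophage markers against 248 CPM in microglia-like cells. Microglial markers summed to 6661 CPM at P9 and 12220 CPM at P28 in neutrophil-like cells. They summed to 13400 and 12410 CPM in cells led by Cldn5, and to 33700 and 46580 CPM in microglia-like cells. Free RNA and droplets with more than 1 cell cannot be told apart here. Shares of cells with an Apoe UMI were 97.0% (median depth 4568 UMIs) in microglia-like and 92.9% (2664) in neutrophil-like cells at P9, and 63.7% (2263) and 83.6% (3790) at P28. These shares are therefore not read as shares of expressing cells, and how far RNA of other cells adds to the levels or to the fall with age was not tested.

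Border-associated macrophage-like cells held the highest Apoe of any class, 40190 CPM at P9 and 37180 CPM at P28. Their Plin2 was 378 CPM (352 to 404) at P9 and 211 CPM (169 to 259) at P28, and their Abca1 was 368 CPM (343 to 394) and 206 CPM (165 to 254). Abcg1 was lower in them than in microglia-like cells of the same age, at 12.7 CPM (8.41 to 18.3) against 31.6 CPM (29.9 to 33.3) at P9 and 19.1 CPM (8.26 to 37.7) against 59.8 CPM (55.9 to 63.9) at P28. These cells were clustered on their genes, so the levels are a description.

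Within the microglia-like clusters Apoe spanned 1067 to 16880 CPM. The 496 cells led by Spp1, nearly all from P9, had 16880 CPM of Apoe, 240.5 CPM of Abca1 and 98.4 CPM of Abcg1; Plin2 (286.5 CPM) is itself among the genes leading that cluster. The 1134 cells led by Fos, an immediate early gene, had 11260 CPM of Apoe over all libraries. In them Apoe was 23029 and 17631 CPM in the P9 wild-type libraries, 7841 to 9266 CPM in the 4 ST2 libraries, and 3924 and 3532 CPM at P28. The low end was held by 3 clusters made up almost wholly of P28 cells and led by Ddit4, Zfp691 and Nav2, with 1067, 1083 and 1168 CPM. The 4 cycling clusters had 3097 to 5345 CPM.

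Over clusters of both ages Abcg1 was ordered otherwise. Its highest cluster level was 137.6 CPM, in 202 mostly P28 cells led by Cst7, where Apoe was 2460 CPM. Among clusters made up mainly of P9 cells, Abcg1 was highest in those led by Spp1 (98.4 CPM) and Fos (56.25 CPM), as Apoe was. Abca1 was at 297 CPM (24 UMIs) in P28 1 and 117 CPM (12 UMIs) in P28 2 within 148 cells led by Lag3, the microglia-like cluster with the lowest Plin2 (10.9 CPM, from 2 UMIs). It was under 60 CPM in 3 of the cycling clusters and in the interferon-led cluster. Ch25h had 0 to 2 UMIs in the microglia-like cells of 7 of the 8 libraries. The eighth, ST2 Het 2, had 23 UMIs there, of which 21 came from 1 cell of the interferon-led cluster. The border-associated macrophage-like cells held 26 Ch25h UMIs (9.89 CPM).

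**Figure D2:**
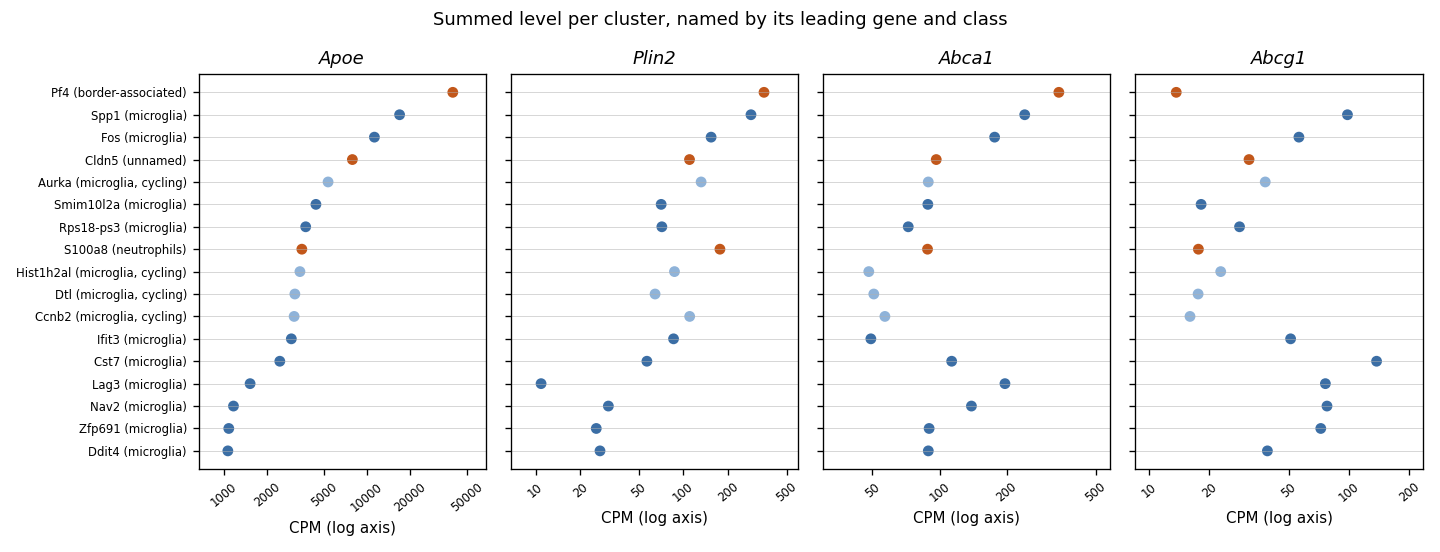
CPM (log axis) of Apoe, Plin2, Abca1 and Abcg1 in each cluster of at least 50 cells, ordered by Apoe; dark blue marks microglia-like, light blue cycling microglia-like and orange other clusters. The border-associated macrophage-like cluster leads for Apoe (39710 CPM) and is last for Abcg1 (13.7 CPM).

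The lists of other pathway genes moved in both directions with age. Of 16 tested LXR partners and targets, 6 were higher and 6 lower at P28 (median 0.07, against 0.06 for all genes). Lipoprotein lipase, Lpl, fell from 195 ± 4.29 to 32.4 ± 3.71 CPM (SD, n = 2 each; -2.59 ± 0.07), Apoc1, a small apolipoprotein beside Apoe, from 34.1 to 1.54 CPM (-4.46 ± 0.25), and the phagocytic receptor Mertk rose from 99.2 to 263 CPM (1.41 ± 0.06). Of 14 uptake and lysosomal genes, 4 were higher and 9 lower (median -0.32). They included the lysosomal membrane protein Lamp1 (-0.97) and the lysosomal cholesterol exporter Npc1 (0.87). Of 23 droplet genes, 8 were higher and 4 lower (median 0.09): the coat gene Plin3 fell (-1.60), and the lipases Pnpla2 (1.18) and Mgll (1.18) rose. Of 6 oxysterol genes, 3 were higher and 1 lower, with Cyp27a1, which makes 27-hydroxycholesterol, at 1.01, Gpr183, an oxysterol receptor, at 0.29 and the sterol sensor Insig1 at -1.41.

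Whether the genes differ at P9 between the libraries labelled ST2 KO and ST2 Het was asked next. Il1rl1 gave 37 and 48 UMIs in the 1288 and 1273 cells of the libraries labelled ST2 Het, and 31 and 30 UMIs in the 672 and 826 cells of the libraries labelled ST2 KO. The libraries labelled KO thus still gave Il1rl1 UMIs at a like rate per cell. The labels do not say which part of the gene is deleted, and 3′ tags outside that part check nothing. Of 11601 genes, 0.612% were called (0.310% higher and 0.302% lower in the libraries labelled KO), and 9.95% had an unadjusted p under 0.05. None of the 7 tested lipid genes was called with edgeR, 2 had an unadjusted p under 0.05 (Nr1h2, 0.0088, and Mylip, 0.011), and DESeq2 called 0.

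Apoe was at 4753 and 4615 CPM in the Het and 4408 and 4501 CPM in the KO libraries, a difference of -0.07 ± 0.04 (adjusted p = 0.62). Nr1h2 showed the widest gap, with 38.8 and 41.2 CPM in Het and 33.0 and 32.8 CPM in KO (-0.28 ± 0.09, adjusted p = 0.29). Mylip was at 97.6 and 105.8 CPM and at 87.3 and 88.9 CPM (-0.21 ± 0.07, adjusted p = 0.32). The points of these 3 genes, and of Abca1 and Soat1, did not overlap between genotypes, as in 37.9% of all genes tested, and the differences did not pass the test. Abca1 (-0.13 ± 0.07), Soat1 (-0.10 ± 0.10), Abcg1 (0.04 ± 0.12) and Plin2 (-0.03 ± 0.08) also missed it, with adjusted p from 0.61 to 0.94. Of the genes not tested, Pparg was at 0.441 and 0.142 CPM in Het and 0 in both KO libraries, and Nr1h3 and Ch25h ran from 0.220 to 3.27 CPM with overlap. The number of all genes called ran from 13 higher without KO 1 to 126 higher without KO 2, and was 14 without Het 2, with 0 of the lipid genes called each time. In the 4 pathway lists, of 16, 14, 23 and 6 genes tested, 0 were called, with medians from -0.08 to 0.01. Other measures differed between these libraries. Microglia-like cells numbered 1248 and 1233 in Het and 638 and 777 in KO, with 25.6% and 28.1% against 32.8% and 29.9% in cycling clusters. Jun stood at 631 and 645 CPM in Het and 395 CPM in both KO libraries. Endothelial markers summed to 72.5 and 70.0 against 103 and 110 CPM, and mural markers to 10.9 and 18.3 against 34.6 and 31.5 CPM. Their part in the results was not tested.

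The response to IL-33 was measured in cultured microglia, in bulk samples, in which fewer cells of a type and less RNA per cell cannot be told apart. Abca1, Nr1h3 and Ch25h rose, and Plin2 and Soat1 fell by smaller steps, while Apoe was not called. Of 10815 genes, 7.76% were called (4.22% higher and 3.54% lower). All 10 lipid genes were tested, with 3 higher and 2 lower.

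Abca1 ran from 128 to 174 CPM (median 161) in medium and from 176 to 214 CPM (median 201) with IL-33. Every IL-33 library lay above every medium library, and Abca1 rose by 0.36 ± 0.06 (adjusted p = 8.6e-04). Nr1h3, the gene of LXR-alpha, ran from 7.00 to 16.6 CPM (median 12.3) in medium and from 16.5 to 27.01 CPM (median 21.2) with IL-33. It rose by 0.85 ± 0.16 (adjusted p = 0.0011), and the groups touched only at the highest medium and the lowest IL-33 library. Ch25h, the maker of the LXR ligand 25-hydroxycholesterol, ran from 149 to 253 CPM (median 176) in medium and from 187 to 300 CPM (median 258) with IL-33. It rose by 0.47 ± 0.10 (adjusted p = 0.0046) with overlap, since Medium 2, at 253 CPM, stood apart from the other medium libraries (149 to 192 CPM).

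On the storage side, Plin2 ran from 1422 to 1616 CPM (median 1483) in medium and from 1240 to 1377 CPM (median 1306) with IL-33. It fell by 0.20 on the log2 scale (-0.20 ± 0.03, adjusted p = 3.7e-04). Soat1 ran from 612 to 684 CPM (median 651) and from 566 to 590 CPM (median 583), a fall of like size (-0.17 ± 0.03, adjusted p = 0.0016). Neither gene's groups overlapped. With Abca1, the groups were apart in 3 of the 10 genes, and in 3.55% of all genes tested.

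Apoe ran from 33560 to 50110 CPM (median 43190) in medium and from 36540 to 41900 CPM (median 40000) with IL-33, a difference of -0.11 ± 0.06 (adjusted p = 0.31). The IL-33 libraries sat inside the wider medium range. Mylip was likewise uncalled, with 56.6 to 84.6 CPM (median 72.1) in medium and 59.7 to 66.4 CPM (median 61.4) with IL-33 (-0.19 ± 0.07, adjusted p = 0.10). Both calls turned on Medium 2, the lowest medium library for both genes. Without it Apoe (-0.16, adjusted p = 0.0043) and Mylip (-0.23, adjusted p = 0.011) passed, which made 4 lower instead of 2. Abcg1 (-0.19 ± 0.12), Nr1h2 (-0.05 ± 0.05) and Pparg (-0.50 ± 0.39, at about 1 CPM) were not called. When the spread was estimated over all 30 bulk libraries, only Abca1 remained called.

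**Figure D3:**
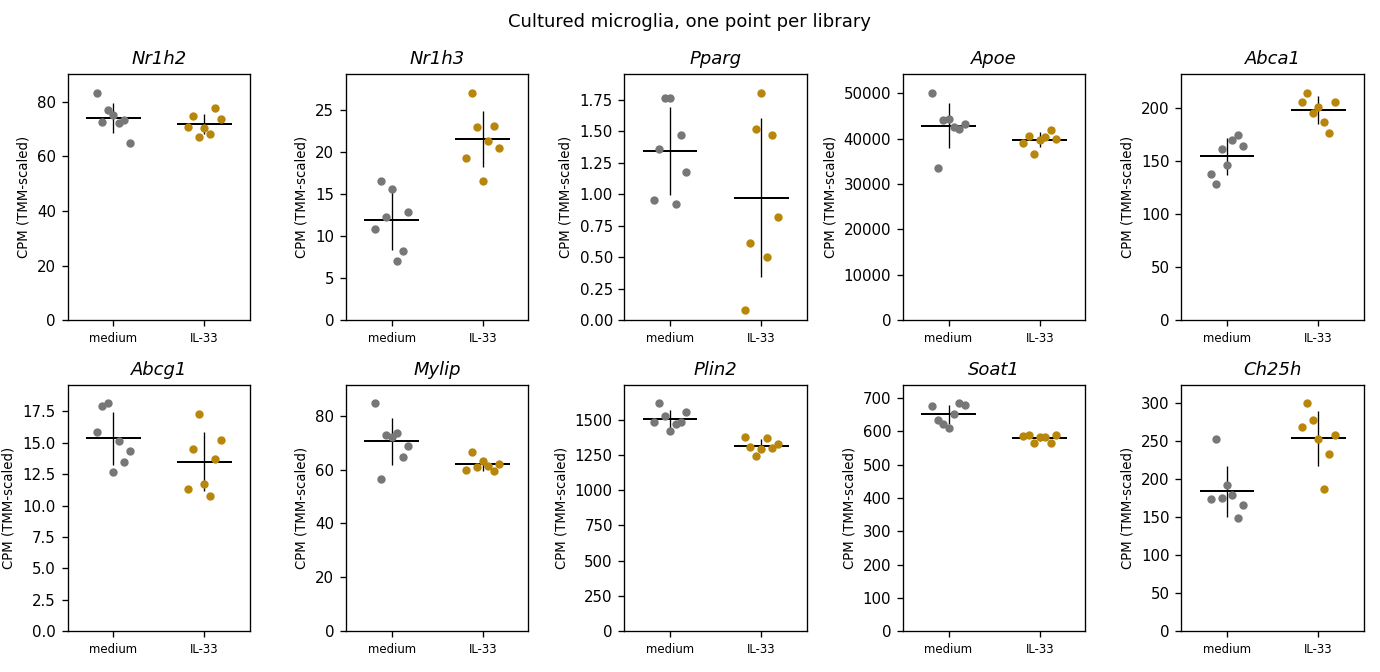
TMM-scaled CPM of the 10 genes in 7 medium and 7 IL-33 libraries, 1 point per library, with mean (horizontal line) and SD (vertical line). Abca1, Plin2 and Soat1 separate the groups completely; Apoe in IL-33 lies within the range in medium.

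In the pathway lists, 1 of 17 LXR partners and targets was higher and 3 lower (median -0.18, against -0.01 for all genes): the LXR partner receptor Rxrg rose (1.07 ± 0.21, 4.57 to 9.60 CPM), and Mertk (-0.34) and Smpdl3a (-0.20) fell. Of 16 uptake and lysosomal genes, 2 were higher and 3 lower (median -0.08). The scavenger receptor Msr1 rose (0.34), and the receptors Lrp1 (-0.29) and Trem2 (-0.24) fell. Of 21 droplet genes, 2 were higher and 4 lower (median -0.02): the fatty acid activating enzymes Acsl1 (0.66 ± 0.07) and Acsl4 (0.35) rose, and the fatty acid carrier Fabp5 fell (-0.33). Of 6 oxysterol genes, 0 were higher and 1, Gpr183, was lower (-0.46).

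Microglia that held neuronal GFP were compared with those that did not. Tau-GFP plus libraries had more Apoe and Plin2 and less Mylip, whereas Abca1, Abcg1, Soat1 and Nr1h2 were not called. Of 12138 genes, 37.7% were called (20.7% higher and 16.9% lower in plus). 7 of the 10 genes passed the low-count filter, with 2 higher and 1 lower.

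Apoe ran from 6362 to 12280 CPM (median 7911) in plus and from 3298 to 4679 CPM (median 4177) in negative libraries. It was higher in all 8 plus libraries, by 1.02 ± 0.11 (adjusted p = 1.4e-06), with plus 5 (12280 CPM) and plus 6 (9950 CPM) on top and negative 8 lowest. Plin2 ran from 131 to 216 CPM (median 156) and from 57.5 to 83.7 CPM (median 75.0). The groups did not overlap (1.17 ± 0.10, adjusted p = 1.7e-07), and plus 5 and plus 6 were again the highest. Mylip ran from 85.8 to 180 CPM (median 160) in plus and from 182 to 228 CPM (median 207) in negative libraries. It fell by 0.50 on the log2 scale (-0.50 ± 0.12, adjusted p = 0.0037), with plus 1 (85.8 CPM) and plus 3 (102.5 CPM) the lowest. Plus and negative libraries did not overlap in these 3 of the 10 genes, and in 11.3% of all genes tested.

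Neither exporter was called. Abca1 ran from 351 to 461 CPM (median 427) in plus and from 348 to 432 CPM (median 395) in negative libraries (0.08 ± 0.06, adjusted p = 0.34). Abcg1 ran from 152 to 263 CPM and from 156 to 239 CPM (0.02 ± 0.10, adjusted p = 0.89). Soat1 (0.06 ± 0.08) and Nr1h2 (-0.06 ± 0.07) overlapped as fully. Nr1h3 and Pparg stayed under 2 CPM. Ch25h was under the filter, at 0 to 4.74 CPM in plus and 0 to 0.520 CPM in negative libraries, with the highest value in plus 6. Kept in without a filter it was called higher (3.04 ± 0.85, adjusted p = 0.011).

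Markers of other cells moved with the sort. The 8 border-associated macrophage markers summed to 2834 to 7561 CPM (median 3546) in plus and 467 to 738 CPM in negative libraries, with every plus library above every negative one for 8 of 8 markers; Lyve1 and Cd163 reached 0 in negative libraries, and none was at 0 in every library. The 12 microglial markers summed to 31320 to 47600 CPM in plus and 58060 to 72040 CPM in negative libraries, lower in every plus library for 11 of 12. Of 8 neuronal markers, 6 were higher in every plus library (sums 80.5 to 192 CPM against 3.36 to 15.98 CPM). Mural cell markers summed to 51.7 to 371 CPM against 6.69 to 44.6 CPM, with 4 of 7 higher in every plus library, and Fos ran from 337 to 1122 CPM against 59.8 to 269 CPM. The part of these measures in the Apoe and Plin2 differences was not tested.

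Among the 8 plus libraries, Apoe followed the summed border-associated macrophage markers (Pearson r = 0.941, exact permutation p = 0.0099; Spearman rho = 0.690, p = 0.069). Of the 7 genes so examined none passed after Benjamini-Hochberg adjustment (Apoe adjusted p = 0.069 for r and 0.24 for rho). Without plus 5 and plus 6, the 2 libraries farthest from the median of the marker sum, r was 0.311. Leaving these 2 out also narrows the range of the marker sum, which can lower r by itself. The value therefore does not show what the relation rested on. For Plin2 r was 0.765 (adjusted p = 0.19), and 0.249 without plus 5 and plus 6.

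In the lists, 3 of 16 LXR partners and targets were higher and 3 lower (median 0.04, against 0.01 for all genes), with Smpdl3a higher (1.17 ± 0.19) and Lpcat3, a phospholipid remodelling enzyme (-0.42), and Mertk (-0.58) lower. Of 16 uptake and lysosomal genes, 4 were higher and 5 lower (median -0.15). The scavenger receptors Cd36 (5.32 ± 0.33, 6.06 to 240 CPM) and Msr1 (3.99 ± 0.29, 1.72 to 27.5 CPM) had the widest gaps, and the lysosomal sterol carrier Stard3 was lower (-0.57). Cd36 is also among the genes leading the border-associated macrophage-like cluster of the single-cell libraries. Of 22 droplet genes, 7 were higher and 2 lower (median 0.08): Fabp5 (2.16) and the cholesterol ester hydrolase gene Nceh1 (1.17) rose, and Soat2 fell (-0.70). Of 8 oxysterol genes, 2 were higher, Cyp39a1 (2.08) and Cyp27a1 (0.55), and 1 was lower, Insig2 (-0.35).

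Microglia with high mitochondrial dye were compared with those with low dye on the log2(FPKM + 1) scale, which understates the change of low genes. Apoe, Plin2, Soat1, Abcg1 and Abca1 were all higher in TMRM-high libraries, and Nr1h2, Mylip and Ch25h were not called. Of 10714 genes, 30.3% were called by limma (20.4% higher and 9.84% lower). 8 of the 10 genes passed the filter of a mean of 1 FPKM; Nr1h3 and Pparg did not.

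FPKM is given per length, so here levels can be set between genes. Apoe had the highest mean of all 23356 symbols in TMRM-high and ranked 6 in TMRM-low libraries. In TMRM-high libraries Apoe (13720 FPKM on average) was followed by Plin2 (297), Mylip (55.6), Abcg1 (41.3), Soat1 (36.0), Nr1h2 (27.9), Abca1 (21.7) and Ch25h (4.04), with Pparg (0.592) and Nr1h3 (0.468) near the floor. Mean ± SD overlapped between neighbours in this order for Mylip and Abcg1, Abcg1 and Soat1, and Pparg and Nr1h3. Soat1 stood at 15.3 FPKM in TMRM-low libraries, below Nr1h2 (28.1) and close to Abca1 (13.5).

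Apoe ran from 12320 to 15070 FPKM (median 13710) in TMRM-high and from 4328 to 8620 FPKM (median 5139) in TMRM-low libraries. It rose by 1.36 ± 0.09 (adjusted p = 1.2e-09), without overlap, and low 3 (8620 FPKM) stood far above the other low libraries (4330 to 5350 FPKM). Plin2 ran from 281 to 313 FPKM (median 295) and from 98.0 to 153 FPKM (median 118), a rise of 1.31 ± 0.07 (adjusted p = 5.0e-11). Soat1 ran from 29.4 to 43.0 FPKM (median 36.6) and from 8.22 to 18.2 FPKM (median 16.5), a rise of 1.21 ± 0.12 (adjusted p = 2.6e-07). The droplet coat and the esterifying enzyme thus separated the sorts as fully as Apoe did. The sorts did not overlap in 4 of the 10 genes and in 6.85% of all genes tested.

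Both exporters were higher as well. Abcg1 ran from 36.3 to 48.7 FPKM (median 41.1) in TMRM-high and from 15.7 to 29.9 FPKM (median 23.1) in TMRM-low libraries (0.79 ± 0.09, adjusted p = 2.3e-06). Abca1 ran from 16.5 to 24.3 FPKM (median 22.3) and from 10.1 to 17.2 FPKM (median 13.03), with overlap at the edge (0.66 ± 0.11, adjusted p = 7.6e-05). An exact two-sided permutation test of each gene gave 4.6e-05, the smallest p that 10 against 8 libraries can give, for Apoe, Plin2, Soat1 and Abcg1, and 1.4e-04 for Abca1.

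Mylip overlapped widely, with 36.1 to 70.7 FPKM in TMRM-high and 31.7 to 69.5 FPKM in TMRM-low libraries (-0.11 ± 0.16, adjusted p = 0.64). Nr1h2 was at 24.9 to 34.0 FPKM and 23.4 to 35.7 FPKM (-0.01 ± 0.08, adjusted p = 0.97), and Ch25h at 2.07 to 6.22 FPKM and 0 to 4.78 FPKM (0.49 ± 0.27, adjusted p = 0.19). Low 3 had the lowest Mylip, Abcg1, Soat1 and Ch25h of the low libraries and the highest Apoe, Plin2 and Nr1h3. Without it the differences were 1.45 for Apoe, 1.36 for Plin2, 1.10 for Soat1, 0.72 for Abcg1 and 0.61 for Abca1, each still called.

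**Figure D4:**
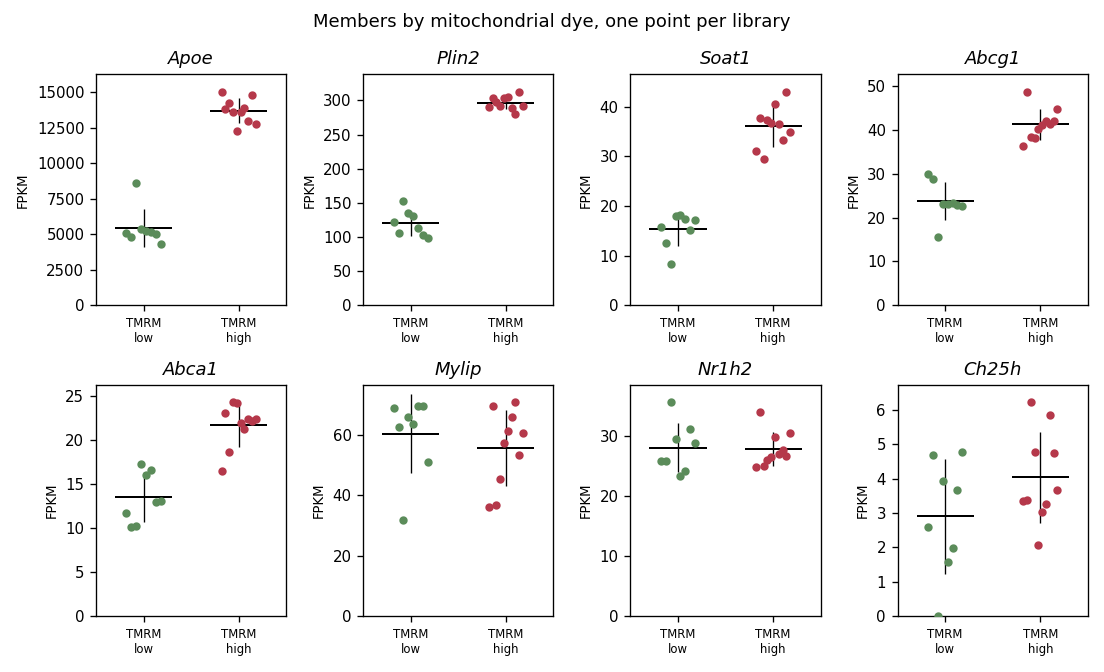
FPKM of 8 genes in 8 TMRM-low and 10 TMRM-high libraries, 1 point per library, with mean (horizontal line) and SD (vertical line). Apoe, Plin2, Soat1 and Abcg1 separate the sorts completely, and the single high Apoe point among the low libraries is low 3 (8620 FPKM).

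Other measures moved with the dye as well. The border-associated macrophage markers summed to 203 to 303 FPKM in TMRM-high and 56.0 to 145 FPKM in TMRM-low libraries, with 1 of 8 markers separating the sorts and none at 0 in every library. Neuronal markers summed to 2.00 to 4.70 FPKM in TMRM-high and 9.25 to 51.7 FPKM in TMRM-low libraries, and 3 of 12 microglial markers (P2ry12, Tmem119 and Siglech) were lower in every TMRM-high library. Neutrophil markers summed to 0.184 to 785 FPKM and 651 to 2326 FPKM, and choroid plexus markers reached 34350 FPKM in low 2 and 6332 FPKM in low 7 against at most 295 FPKM elsewhere. The heat shock gene Hspa1a was at 555 to 1081 FPKM in TMRM-high and 1818 to 2242 FPKM in TMRM-low libraries. Their part in the results was not tested. Scaling by median ratios changed the balance of all calls from 67.5% to 54.5% higher (1718 higher and 1437 lower), and the 5 genes stayed called.

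In the lists, 7 of 17 LXR partners and targets were higher and 1 lower (median 0.31, against 0.06 for all genes). Lpl rose from 63.6 ± 7.61 to 151 ± 13.1 FPKM (1.24 ± 0.07), Apoc1 from 21.9 to 75.8 FPKM (1.75 ± 0.18), and Apoc4 was listed at 0 in every TMRM-low library and averaged 2.01 FPKM in TMRM-high libraries. Of 13 uptake and lysosomal genes, 9 were higher and 0 lower (median 0.47), led by the acid lipase Lipa (0.97 ± 0.07), the sterol carrier Npc2 (0.64) and the lysosomal membrane gene Scarb2 (0.47). Of 21 droplet genes, 7 were higher and 2 lower (median 0.16): Hilpda, which restrains droplet lipolysis (2.17 ± 0.12, 13.7 to 64.0 FPKM), Fabp5 (2.73) and Nceh1 (1.31) rose. Of 6 oxysterol genes, 0 were higher and 1, Gpr183, was lower (-0.46).

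**Figure D5:**
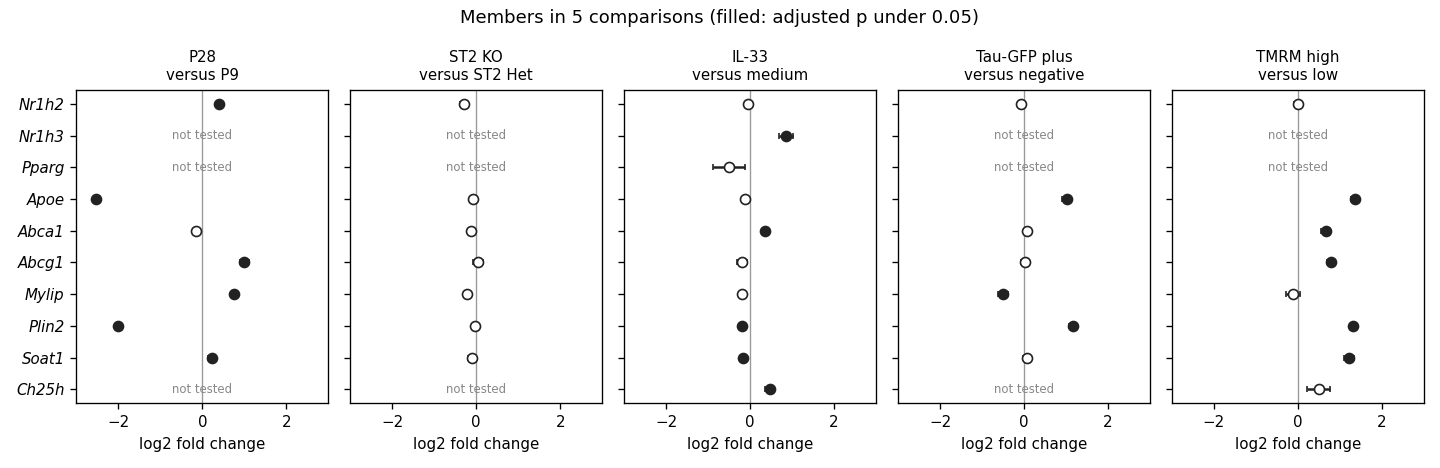
Log2 fold change with its SE (bars) of the 10 genes in the 5 comparisons; filled points passed an adjusted p of 0.05 and open points did not. Apoe and Plin2 lie on the same side in P28 versus P9 (-2.53 and -1.997), Tau-GFP (1.02 and 1.17) and TMRM (1.36 and 1.31), while ST2 KO versus Het shows open points only.

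Cultured and freshly sorted microglia were placed on 1 CPM scale over the 30 bulk libraries; they differ in strain, age and preparation, so levels are given with no test. Apoe averaged 3605 ± 331 CPM in Tau-GFP negative, 7309 ± 1624 CPM in Tau-GFP plus, 50150 ± 5669 CPM in medium and 46510 ± 2156 CPM in IL-33 libraries (SD, n = 8, 8, 7 and 7). Plin2 (64.1, 144, 1766 and 1542 CPM) and Soat1 (152, 158, 762 and 680 CPM) followed the same order of preparations.

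The 2 cholesterol exporters and Mylip were instead lowest in culture. Abcg1 averaged 174 and 176 CPM in the sorted groups and 17.98 and 15.8 CPM in the cultured ones, and Abca1 342 and 361 against 181 and 232 CPM. Mylip averaged 179, 127, 82.5 and 72.5 CPM. The genes near the floor in sorted cells appeared in culture: Nr1h3 averaged 0.790, 0.902, 13.9 and 25.2 CPM, and Ch25h 0.153, 1.35, 216 and 298 CPM. Nr1h2, LXR-beta, differed least between preparations (59.2, 56.6, 86.7 and 84.1 CPM), and Pparg stayed under 2.2 CPM in every library. Sorted and cultured libraries overlapped for Pparg and Mylip and for none of the other 8 genes. Of all 12067 genes with a mean of at least 1 CPM, 34.4% did not overlap. The 12 microglial markers summed to 9125 to 10390 CPM in medium, below every sorted library. Border-associated macrophage markers summed to 1022 to 1476 CPM in medium, against 467 to 738 CPM in Tau-GFP negative and 2834 to 7561 CPM in plus libraries. Medians of Ms4a7, F13a1, Pf4 and Folr2 were higher in medium than in negative libraries, and those of Mrc1, Lyve1, Cbr2 and Cd163 were lower. The part of these markers in the levels was not tested.

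The genes whose library-to-library deviations were most like those of Apoe were ranked by Pearson's r of log2 CPM deviations from the group mean. Over the 16 Tau-GFP libraries (8469 genes) they were Rasgef1b (0.869), Sdcbp (0.841), Nrp1 (0.839), Zfp36 (0.838) and Fos (0.835). Abca1 (0.656), Soat1 (0.583) and Plin2 (0.553) were the closest of the 6 other genes abundant enough to be ranked. Over the 14 culture libraries (7452 genes) they were the complement genes C1qa (0.940) and C1qb (0.936), Il10ra (0.891), Gak (0.887) and Cst3 (0.882). There Mylip (0.867) ranked 7, Plin2 was at -0.385 and Ch25h at -0.583. The libraries within a set share preparation and depth, so these are descriptions.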

How the data were processed

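The 10 genes and the accompanying lists were chosen with earlier results of these data known. Single-cell UMI counts were deposited by the authors as 1 matrix made with Cell Ranger, and bulk expected counts as an RSEM table after Bowtie2 alignment to mm10, per the submitters' processing notes; expected counts were rounded to whole numbers, and 5 of its 35 columns matched no sample label and were not used. FPKM values of the TMRM libraries were deposited by the authors from TopHat2 2.0.10 and Cufflinks 2.0.2, which are named in the submitters' processing notes. The notes also name DESeq2.

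Cells with at least 500 genes and at most 10% mitochondrial UMIs were clustered in scanpy 1.11.5 (2000 variable genes, 30 components, 15 neighbours, Leiden resolution 1, leidenalg 0.10.2). A cluster was named from marker lists; UMIs of microglia-like cells were summed per library. Counts were tested with edgeR 4.0.16 (quasi-likelihood F test, TMM, filterByExpr; the 8 single-cell libraries in 1 fit, each bulk pair alone) and FPKM with limma 3.58.1 (trend) on log2(FPKM + 1), with a mean of at least 1 FPKM, in R 4.3.3. P-values were adjusted by Benjamini-Hochberg over all genes tested, at 0.05. Values after ± are SE for log2 fold changes and SD for levels. From each list the 3 called genes with the smallest adjusted p are named, except 1 that is not reported here. Intervals cover 95%.

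The TMRM high 8 file ends early: 500 symbols, none of them among the 10, have no value there. The tests were also run on simulated data. In these, far fewer genes changed than were called for age, Tau-GFP or TMRM, and fewer than for IL-33. Their error rates in those comparisons were therefore not gauged. Alternatives were DESeq2 1.42.0, no filter, library totals, other cell or library sets, a replicate block, FPKM pseudocount 0.1, median ratio scaling and leaving out each library. Reads shared with paralogs or overlapping genes were not examined.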

Additional observations from a re-analysis of the deposited data

Results flagged for a closer look

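Within groups of 4 to 10 libraries, 60 sets of values of the 10 genes were examined for a library far from the others by Dixon's test, and 5 had one; chance alone gives about 1 in 20. Ch25h was at 253 CPM in Medium 2, against 149 to 192 CPM in the other medium libraries. Ch25h was at 4.74 CPM in Tau-GFP plus 6, against 0 to 1.92 CPM in the other plus libraries. Apoe was at 3300 CPM in Tau-GFP negative 8, against 4080 to 4680 CPM in the others; without it the Apoe difference was 0.98 (adjusted p = 3.8e-06). In TMRM low 3, Apoe was at 8620 FPKM, against 4330 to 5350 FPKM in the other low libraries, and Nr1h3 was at 1.65 FPKM, against 0 to 0.637 FPKM.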

How the results depend on the processing

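The 19 gene calls were recomputed under 345 alternatives; 332 kept their direction and stayed past the threshold, 13 kept their direction but missed it, and 0 reversed. Of the 13, 9 were Soat1 between P28 and P9, and 4 (Plin2, Nr1h3, Soat1 and Ch25h) came from fitting IL-33 with all 30 libraries. That fit called 184 higher and 154 lower genes, and 1 higher and 0 lower of the 10. Leaving out 1 library gave 2 to 4 of the 10 lower with IL-33. DESeq2 called 1793 genes higher at P28 (3188 in edgeR); in Tau-GFP it moved the median over all genes from 0.01 to 0.13, with Apoe at 1.03. For ST2 KO versus Het (36 higher, 35 lower), all cells gave 23 and 21, no filter 252 and 115, the replicate block 263 and 85, leaving out the Spp1- or Fos-led clusters 8 lower, and leaving out 1 library 13 to 126 and 11 to 35. Replicate numbers were not taken as pairs, since in no comparison with 3 or more did every same-numbered correlation exceed 0.1. In Tau-GFP 6 of 8 did and 5 of 8 libraries matched their own number best. In KO versus Het the correlation was 0.123, which both pairs share by construction with 2 libraries per group. With the block, the 10 genes had 3 higher and 3 lower calls for age (Abca1 -0.19, adjusted p = 0.014, called; Soat1 0.19, adjusted p = 0.080, not), and the calls for IL-33, Tau-GFP and TMRM were as many as without it; over all genes there were 3124 and 3387, 470 and 399, 2445 and 2092, and 1512 and 791. Signs that turned belonged to uncalled differences, apart from Abca1 with age, which was called at 0.38 without the Spp1- or Fos-led clusters. They were, in KO versus Het over all cells, Apoe 0.009 and Plin2 0.0256. With 1 library left out, Plin2 ran from -0.1174 to 0.0502 and Abcg1 from -0.0895 to 0.1895 there, Abcg1 in Tau-GFP from -0.0432 to 0.0713, and Nr1h2 in TMRM from -0.04 to 0.0438. The cause was not tested. Few UMIs limited Nr1h3, Pparg and Ch25h in single cells.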
